A study of Rattus norvegicus with 6 samples.

Results

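The cluster of miR-143 and miR-145 was followed in plasma from 3 untreated male Sprague-Dawley rats aged 10 weeks. From each rat, arterial plasma was taken at the abdominal aorta and venous plasma at the postcava, so that there were 3 arterial and 3 venous samples, paired by rat, with no diseased or treated group. Each of the 6 samples was hybridized to 1 single-colour Agilent rat microRNA array. The cluster members are the 4 mature microRNAs rno-miR-143-3p, rno-miR-143-5p, rno-miR-145-5p and rno-miR-145-3p, chosen by their names on the array. They were 4 of the 758 rat microRNAs measured, and each was covered by 2 probes with 8 spots per probe.

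miR-143 and miR-145 are processed from 2 neighbouring hairpins that are transcribed together. The cluster is best known in vascular smooth muscle, where serum response factor and its partner myocardin switch it on and where it restrains KLF4, KLF5 and ELK1 and so favours the contractile state of the cell. A hairpin gives 2 arms, and the arm that is usually kept by Argonaute is the 3p arm of miR-143 and the 5p arm of miR-145, while the other arm is mostly degraded. In plasma, microRNAs circulate in vesicles or bound to proteins, and a plasma level does not name the cell that released them.

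All 4 mature sequences were found in the RefSeq table of the GRCr8 assembly. They are shown because the seed largely decides which messenger RNAs a microRNA can pair with, and because the comparison turns on which arm of each hairpin was found in plasma. Capitals mark the seed, bases 2 to 8 from the 5′ end.
rno-miR-143-3p: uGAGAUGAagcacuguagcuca
rno-miR-143-5p: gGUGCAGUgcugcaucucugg
rno-miR-145-5p: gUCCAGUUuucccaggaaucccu
rno-miR-145-3p: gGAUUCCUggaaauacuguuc
In GRCr8 these lie on the minus strand at chr18:57371373-57371394 (rno-miR-143-3p), chr18:57371408-57371428 (rno-miR-143-5p), chr18:57370033-57370055 (rno-miR-145-5p) and chr18:57369997-57370017 (rno-miR-145-3p). The hairpins Mir143 and Mir145 are 1278 bases apart, with Mir143 first in the direction of transcription, and both lie inside the span of the long noncoding RNA gene Carmn, whose synonym is Mir143hg. The 4 seeds differ from each other, and none of them occurs in another of the 693 mature rat microRNAs in that table. The members therefore share a locus but no seed.

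Feature Extraction called between 137 and 175 of the 758 microRNAs detected on an array, and 126 of them (16.6%) on all 6 arrays, against 557 (73.5%) on none. Rats 1 and 2 were hybridized on 1 slide and rat 3 on another, with both samples of a rat on the same slide, so that the comparison of plasmas was made within slides, but rat 3 and the second slide cannot be told apart. The arterial arrays of rats 1 and 3 were brighter as a whole than their venous arrays. Over the 126 microRNAs detected on every array, the median ratio of arterial to venous intensity before normalization came to 1.55, 0.819 and 1.78 for rats 1, 2 and 3. Quantile normalization over all 758 microRNAs was used to remove this shift, followed by a floor of 1 and the log2. The small number of arrays limits precision.

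One arm of each hairpin was detected in plasma and the other was not. rno-miR-143-3p and rno-miR-145-5p were detected on all 6 arrays, in arterial and venous plasma alike. rno-miR-143-5p and rno-miR-145-3p were detected on none. Of the 96 spots of each microRNA over the 6 arrays, 77 of rno-miR-143-3p and 93 of rno-miR-145-5p were well above background, against 0 of rno-miR-143-5p and 0 of rno-miR-145-3p.

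**Figure D1:**
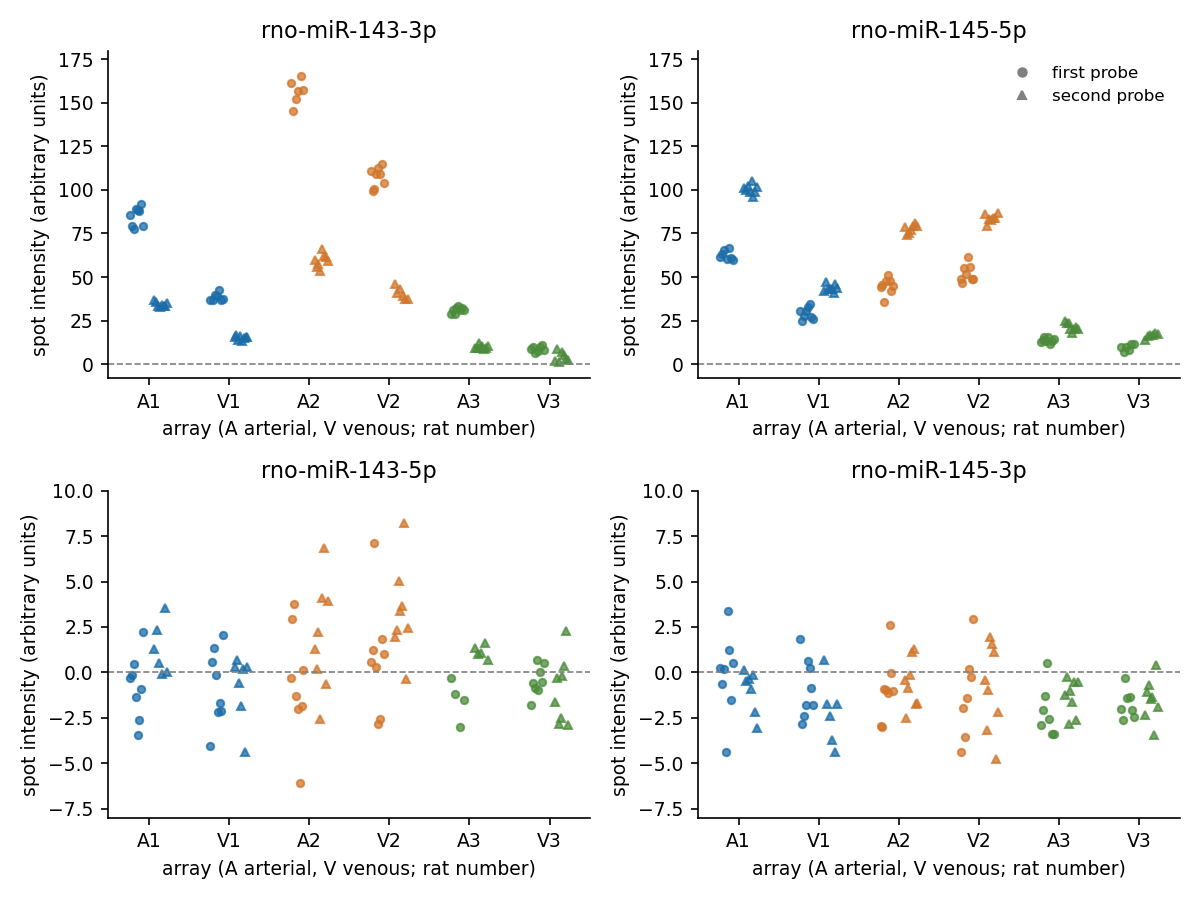
Background-subtracted intensity of each spot of the 4 members on the 6 arrays (x axis, A arterial, V venous, with the rat number), in arbitrary units before normalization between arrays, without spots flagged as outliers. Circles and triangles are the first and second probe of a microRNA, the dashed line is the level of the background, and the lower panels have a narrower axis. The spots of rno-miR-143-5p and rno-miR-145-3p scatter around 0 on every array, between -6.1 and 8.22, while those of rno-miR-143-3p and rno-miR-145-5p reach 165 and 105.

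The mean intensities of rno-miR-143-5p, the arm of miR-143 that is usually degraded, lay between -0.775 and 2.08 over the arrays, and its highest value was that of the venous plasma of rat 2. For rno-miR-145-3p, the arm of miR-145 that is usually degraded, they lay between -1.74 and -0.564, so that no array gave a mean above the background. No ratio between arterial and venous plasma is given for these arms, since neither group was above background. The table deposited by the authors holds normalized linear intensities of 39.0 to 42.8 for rno-miR-143-5p and 36.2 to 40.3 for rno-miR-145-3p. The medians of its columns are 38.5 to 42.33, so that these values lie close to the middle of the table.

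rno-miR-143-3p, the arm of miR-143 that is usually kept, gave background-subtracted intensities of 59.6 (rat 1), 108.0 (rat 2) and 20.4 (rat 3) in arterial plasma. In the venous plasma of the same rats it gave 26.8, 74.1 and 6.49. The arterial value was the higher in every rat, but arterial and venous values overlapped, since the arterial plasma of rat 3 was below the venous plasma of rats 1 and 2. After normalization the log2 intensities were 5.66, 6.46 and 4.46 in arterial and 5.34, 5.57 and 3.47 in venous plasma of rats 1, 2 and 3. The means were 5.53 ± 1.01 (SD, n = 3) and 4.79 ± 1.15 (SD, n = 3).

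Within rats, the normalized log2 intensity of rno-miR-143-3p in arterial plasma exceeded that in venous plasma by 0.33, 0.89 and 1.00. The mean log2 difference was 0.74 (standard error 0.198, 95% interval -0.04 to 1.52), which is a 1.67-fold higher arterial intensity. limma with the rat as a block over all 758 microRNAs gave an unadjusted p of 0.0561 and an adjusted p of 1, so that it did not pass the study's cutoff of 0.025. The exact permutation test within rats gave a two-sided p of 0.25, the smallest that 3 pairs allow. A higher value in the arterial plasma of all 3 rats was found for 12 of the 126 microRNAs detected on every array (9.52%).

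The set of microRNAs in the fit changed this call. With the fit restricted to the 126 microRNAs that every array detected, the log2 difference of rno-miR-143-3p was the same 0.74, its 95% interval was 0.20 to 1.27, and limma's unadjusted p of 0.0161 was past the cutoff with an adjusted p of 0.646. In that fit 3 of the 126 (2.38%) were past the cutoff, all higher in arterial plasma, and none reached an adjusted p of 0.05 in limma, while 7 (5.56%) reached 0.05 unadjusted. Without rat 1 the difference was 0.94 with an unadjusted limma p of 0.00713 (adjusted p = 0.404), and in that fit 33 of 758 microRNAs (4.35%) were past the cutoff. Without rat 2 the difference was 0.66 (unadjusted limma p of 0.172, adjusted p = 1). Without rat 3, which leaves the rats of the first slide, it was 0.61 (unadjusted limma p of 0.149, adjusted p = 1). The difference in rat 3, the one rat of the second slide, rests on dim spots, since 9 of 16 spots of its arterial array and 4 of 16 of its venous array were well above background.

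rno-miR-145-5p, the arm of miR-145 that is usually kept, gave background-subtracted intensities of 81.6 (rat 1), 61.3 (rat 2) and 17.6 (rat 3) in arterial plasma. In the venous plasma of the same rats it gave 36.4, 68.0 and 13.0. Arterial and venous values overlapped, and the venous value was the higher in rat 2. The normalized log2 intensities were 6.13, 5.61 and 4.35 in arterial and 5.72, 5.52 and 4.62 in venous plasma, with means of 5.36 ± 0.92 (SD, n = 3) and 5.29 ± 0.58 (SD, n = 3).

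The normalized log2 difference of rno-miR-145-5p (arterial minus venous) came to 0.41, 0.10 and -0.28 for rats 1, 2 and 3. Its mean was 0.08 (standard error 0.19, 95% interval -0.67 to 0.83), with an unadjusted p of 0.721 and an adjusted p of 1 from limma over all 758 microRNAs. The exact permutation test within rats gave a two-sided p of 0.75. Without rat 1 the mean turned to -0.09. The interval leaves room for a difference of up to 0.83 toward arterial or 0.67 toward venous plasma on the log2 scale.

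**Figure D2:**
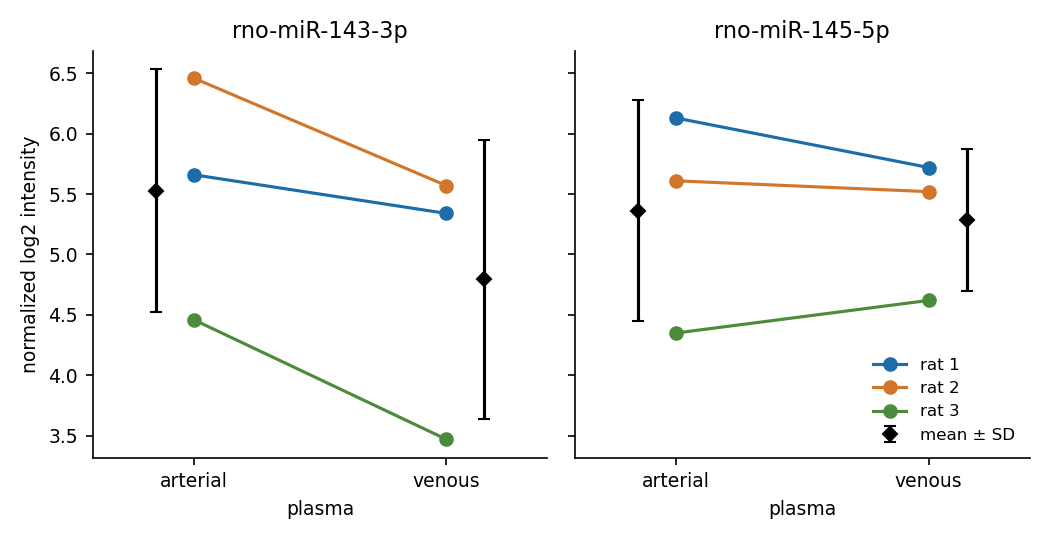
Normalized log2 intensity (y axis) of rno-miR-143-3p and rno-miR-145-5p in arterial and venous plasma, with 1 line per rat joining its 2 samples and black diamonds for the mean ± SD of 3 rats. The line of rno-miR-143-3p falls from arterial to venous plasma in each rat, by 0.33 to 1.00, while that of rno-miR-145-5p falls in rats 1 and 2 and climbs by 0.28 in rat 3, and rat 3 lies lowest for both.

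Of the 4 members, 0 passed the cutoff of 0.025 in limma over all 758 microRNAs, where 6 of 758 did (0.792%), 4 toward arterial (0.528%) and 2 toward venous plasma (0.264%). Only 2 of the members were detected. rno-miR-145-3p was among the 378 microRNAs under the floor on every array, which could not pass, and rno-miR-143-5p lay at or near the floor. In the fit of the 126 detected on every array 3 passed (2.38%), rno-miR-143-3p among them. After adjustment limma left none of the 758 at 0.05, against 12 (1.58%) at an unadjusted 0.05. The methods' t-test, the plain paired test on the same values, called 4 of 758 at the cutoff (0.528%), none of them a member, and none after Benjamini-Hochberg adjustment. The paper itself reports more calls than these 4 at the same cutoff, and again no member among them. Its calls rest on the authors' own normalized values, whereas the 4 rest on the floored values used here. Why the counts differ was not tested. Among the 126 microRNAs detected on every array, the difference of rno-miR-143-3p ranked 3 from the arterial end and that of rno-miR-145-5p ranked 42. The middle of that distribution was narrow, with quartiles at -0.22 and 0.14 on the log2 scale and extremes at -0.87 and 1.16.

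**Figure D3:**
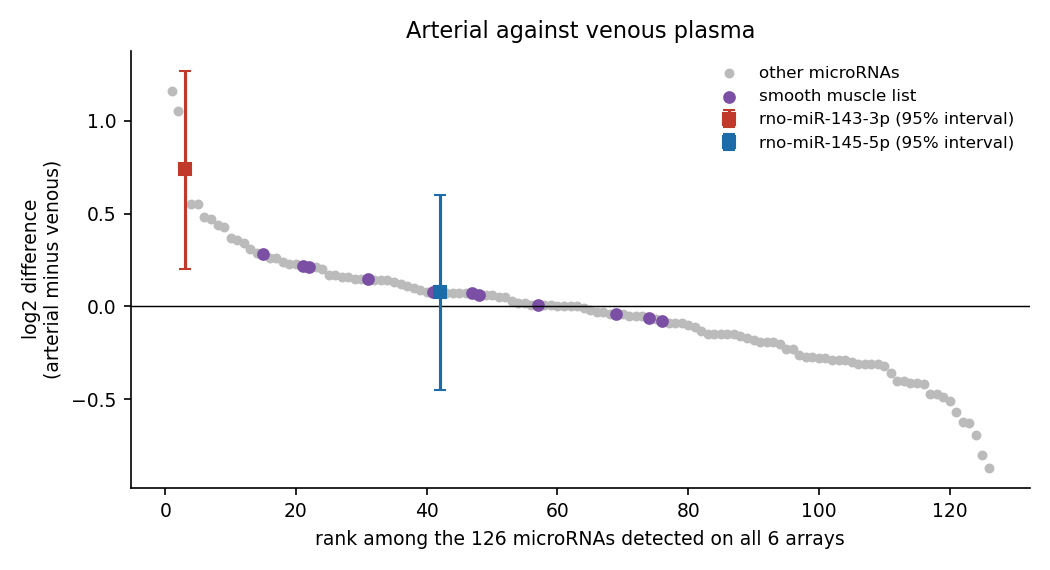
Log2 difference (arterial minus venous, y axis) of each of the 126 microRNAs detected on all 6 arrays, in order of size (x axis). The red and blue squares are rno-miR-143-3p and rno-miR-145-5p with 95% intervals of the limma fit over these 126, and purple points are other microRNAs known from smooth muscle. rno-miR-143-3p stands at rank 3 with an interval of 0.20 to 1.27, and rno-miR-145-5p lies at rank 42 with an interval of -0.45 to 0.60 that spans 0.

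Whether the 2 detected members differed from each other was tested on their differences within rats. The arterial minus venous difference of rno-miR-143-3p minus that of rno-miR-145-5p came to -0.08, 0.79 and 1.27 for rats 1, 2 and 3. The mean was 0.66 ± 0.69 (SD, n = 3) on the log2 scale, and the exact permutation test within rats gave a two-sided p of 0.5, where 0.25 is the smallest possible. In rat 1 both members had nearly the same ratio of arterial to venous intensity before normalization, 2.22 and 2.24. In rats 2 and 3 the ratios were 1.46 and 3.14 for rno-miR-143-3p and 0.902 and 1.36 for rno-miR-145-5p. With 3 rats, a difference between the members was not shown.

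The 2 probes of a member gave separate readings of it on each array. For rno-miR-143-3p, the ratio of arterial to venous intensity before normalization in rats 1, 2 and 3 was 2.21, 1.45 and 3.56 with the first probe, and the second probe gave 2.27 and 1.47 in rats 1 and 2. Both probes therefore read higher in the arterial plasma of rats 1 and 2. In rat 3 no ratio is given for the second probe, which was dim there. Of its 8 spots, 0 were well above background on the venous array and 1 on the arterial array. The first probe had 4 of 8 well above it on the venous array. For rno-miR-145-5p, the ratios before normalization were 2.15, 0.859 and 1.45 with the first probe and 2.3, 0.929 and 1.3 with the second. Both were below 1 in rat 2 only. After normalization the log2 differences in rats 1, 2 and 3 were 0.34, 0.03 and -0.13 with the first probe and 0.37, 0.31 and -0.55 with the second. The direction in rats 2 and 3 therefore turned with the normalization. Over the 6 arrays, the Pearson correlation of the normalized log2 values of the 2 probes was 0.983 for rno-miR-143-3p and 0.954 for rno-miR-145-5p.

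When each probe was quantile normalized and fitted as its own feature, a setting chosen after the data were seen, the log2 difference of rno-miR-143-3p was 0.83 with the first probe and 0.72 with the second. The first was not past the cutoff in limma (unadjusted p of 0.0726, adjusted p = 1). The second was (unadjusted p of 0.0106, adjusted p = 1), but it was dim in rat 3, with means of 9.75 on the arterial and 4.27 on the venous array. Its small standard error of 0.0926 rests in part on these dim readings. For rno-miR-145-5p the values were 0.08 and 0.05. The spots of a probe are repeats on the same array and not replicates. Where the mean of a probe was above 5, their coefficient of variation was 4.15 to 18.7% for rno-miR-143-3p and 2.68 to 17.7% for rno-miR-145-5p, the highest of each being on the dim venous array of rat 3.

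**Figure D4:**
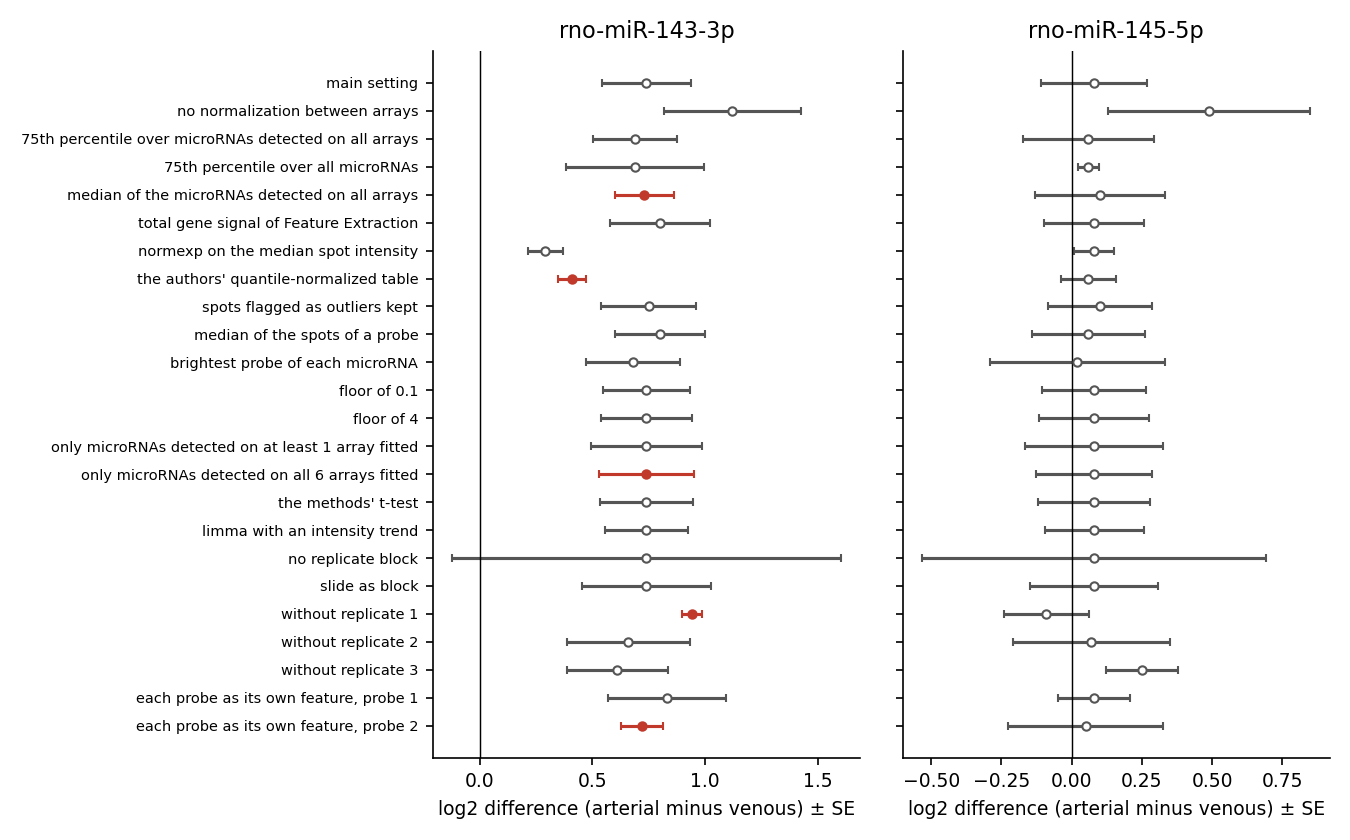
Log2 difference (arterial minus venous, x axis) with its standard error for rno-miR-143-3p and rno-miR-145-5p under each processing setting (y axis). Red filled points passed the cutoff of 0.025, open grey points did not. rno-miR-143-3p lies above 0 under all 23 alternatives, from 0.29 to 1.12. It passes the cutoff under 5 of them, 1 being the second probe with its dim readings in rat 3. rno-miR-145-5p runs from -0.09 to 0.49 and passes the cutoff under none.

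Both detected members had a wider range over the rats than between the plasmas of a rat. The mean of the 2 samples of a rat was 5.50, 6.02 and 3.97 for rno-miR-143-3p and 5.92, 5.56 and 4.48 for rno-miR-145-5p in rats 1, 2 and 3 on the normalized log2 scale. Rat 3 was the lowest for both, by at least 1.53 and 1.08. The SD between rats was 1.07 for rno-miR-143-3p and 0.75 for rno-miR-145-5p, which ranked 8 and 17 among the 126 microRNAs detected on every array, whose median SD was 0.37. limma's F test between rats, added after the data were seen, gave an adjusted p of 0.616 for both over all 758 microRNAs, where none reached an adjusted 0.05 and 58 (7.65%) reached 0.05 unadjusted. Over the 126 detected microRNAs the adjusted p from limma was 0.0418 for rno-miR-143-3p and 0.0538 for rno-miR-145-5p, and 3 of the 126 (2.38%) reached 0.05, against 46 (36.5%) unadjusted. Whether the low values of rat 3 belong to the rat or to the second slide cannot be told apart.

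The microRNAs whose levels followed those of the members most closely over the 6 arrays were named by Pearson's r of the normalized log2 intensities among the 126. The 6 arrays come from 3 rats, so that these values are a description. For rno-miR-143-3p they were rno-miR-99a-5p (r = 0.985), rno-miR-199a-3p (r = 0.951), rno-miR-130a-3p (r = 0.934), rno-miR-423-3p (r = 0.865) and rno-miR-10a-5p (r = 0.855), against a median r of -0.01 over the other 125. rno-miR-99a-5p had a higher arterial than venous level in each rat too, by 0.28, 0.31 and 0.69, and its mean log2 difference of 0.43 did not pass the cutoff (adjusted p = 1 from limma). So did rno-miR-10a-5p, by 0.14, 1.02 and 0.48, with a mean of 0.55 (adjusted p = 1 from limma). The other 3 did not keep 1 direction, since rno-miR-199a-3p (-0.18) and rno-miR-130a-3p (-0.17) were lower in the arterial plasma of rat 1, and rno-miR-423-3p (-0.17) in that of rat 3. The log2 intensities of rno-miR-99a-5p were 4.62, 4.93 and 4.14 in arterial and 4.35, 4.62 and 3.44 in venous plasma, so that it too was lowest in rat 3.

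For rno-miR-145-5p the closest were rno-miR-1896 (r = 0.963), rno-miR-423-3p (r = 0.952), rno-miR-1199-5p (r = 0.923), rno-miR-3564 (r = 0.915) and rno-miR-294 (r = 0.888), against a median r of -0.16. The 2 cluster members had r = 0.774 with each other. This placed rno-miR-145-5p at rank 10 of 125 for rno-miR-143-3p, and rno-miR-143-3p at rank 12 for rno-miR-145-5p. rno-miR-423-3p was among the 5 closest to both.

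**Figure D5:**
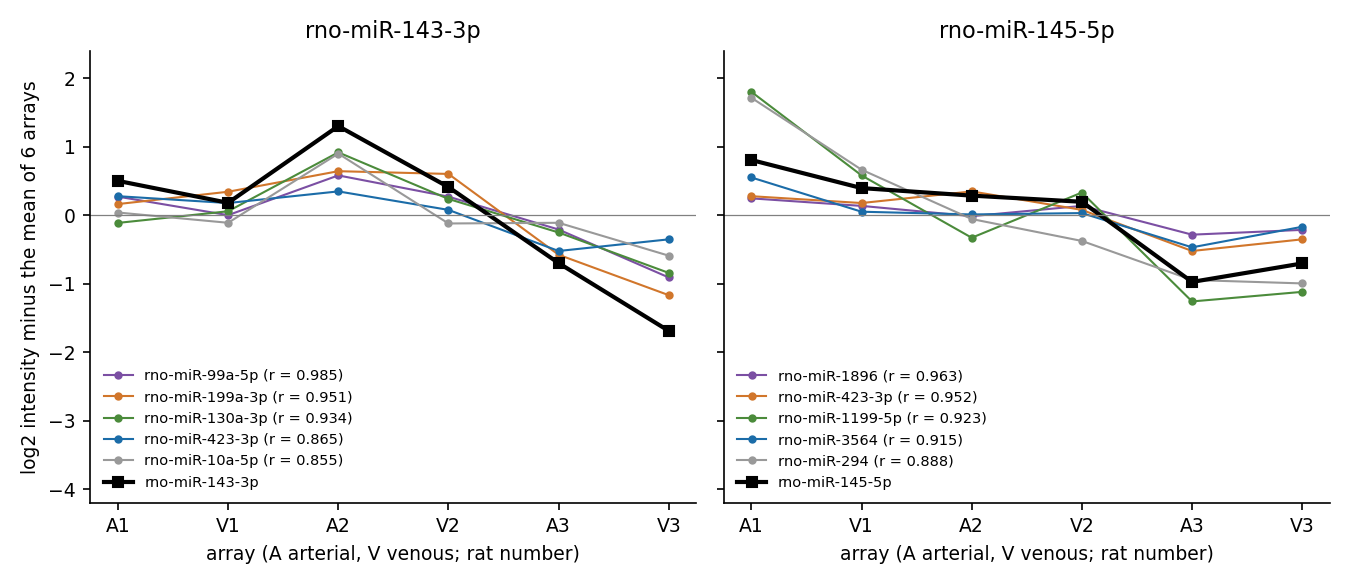
Normalized log2 intensity minus its mean over the 6 arrays (y axis) for rno-miR-143-3p and rno-miR-145-5p (black squares) and the 5 microRNAs with the highest Pearson r to each (coloured), across arrays (x axis, A arterial, V venous, with the rat number). Lines join arrays to show the pattern and mark no order. The 2 arrays of rat 3 are the lowest of the 6 for both members, and r runs from 0.855 to 0.985 on the left and from 0.888 to 0.963 on the right.

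Other microRNAs with a known part in the growth, state or calcification of vascular smooth muscle were taken from a list of 18, all present on the array. Of these, 11 were detected on all arrays and 3 on none. None of the 18 was past the cutoff in limma in either direction, also not at an unadjusted 0.05. Over all 758 microRNAs the shares were 0.792% at the cutoff and 1.58% at 0.05, so that none among 18 does not set the list apart. The paper differs here. Its paired test at the same cutoff, on the authors' own normalized values, called rno-miR-125b-5p higher in arterial plasma and rno-miR-1-3p higher in venous plasma. It reports the same directions for both by quantitative PCR in further rats. The median log2 difference of the 18 was 0.07, with 12 of the 18 above and 6 below 0. Over all 758 microRNAs it was 0.00, but 378 of these lay under the floor on every array. Over the 11 of the list detected on all arrays the median was 0.07, beside 0.00 over the 126 so detected. Among the 126 microRNAs detected on every array, 12 were higher in the arterial plasma of each rat (9.52%). Of the 18, 2 were, of which 1 was among the 126. The first, rno-miR-221-3p, which favours smooth muscle growth, had arterial minus venous differences of 0.17, 0.50 and 0.97 in rats 1, 2 and 3, and its mean of 0.55 had an adjusted p of 1 from limma. It was detected on 4 arrays. The other, rno-miR-125b-5p, had 0.31, 0.06 and 0.26, with a mean of 0.21 (adjusted p of 1 from limma). rno-miR-21-5p, which is abundant in injured vessel walls, had a mean of 0.01, and rno-miR-133b-3p, a microRNA of muscle, which was detected on all arrays, had 0.07. Toward venous plasma, rno-miR-214-3p had a mean of -0.08, rno-miR-24-3p -0.06, rno-miR-26a-5p -0.04 and rno-miR-155-5p -0.03, and rno-miR-133a-3p and rno-miR-1-3p, detected on no array, complete the 6.

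Markers of the cells that could have added microRNAs to plasma are given beside the difference of rno-miR-143-3p, which was toward arterial plasma in all 3 rats. None of the 5 marker lists had a member past the cutoff in limma. The lowest p was that of rno-miR-150-5p, a lymphocyte microRNA, which had arterial minus venous differences of -0.22, -0.40 and -0.58 in rats 1, 2 and 3 (mean -0.40, unadjusted p of 0.0473, adjusted p = 1 from limma). rno-miR-486, an erythrocyte microRNA, was also lower in arterial plasma in each rat, with differences of -0.23, -1.02 and -0.47 (adjusted p = 1 from limma). The erythrocyte list as a whole had no single direction, with 3 of its 5 means toward arterial and 2 toward venous plasma. Among them rno-miR-16-5p had a mean of -0.15. rno-miR-451-5p had differences of 0.00, 0.00 and 0.79 in rats 1, 2 and 3, so its mean of 0.26 rests on rat 3. Whether its equal values in rats 1 and 2 come from the quantile normalization was not tested. All 4 platelet and leukocyte markers were detected on all arrays, and their summed normalized intensity was 490 to 931 in arterial and 649 to 888 in venous plasma, with ratios of arterial to venous plasma of 0.755, 0.874 and 1.05 in rats 1, 2 and 3. The 5 erythrocyte markers, of which 4 were detected on all arrays and rno-miR-144-5p on none, summed to 2040 to 2260 in arterial and 1700 to 2390 in venous plasma, with ratios of 0.946, 0.854 and 1.33. The 2 liver markers, both detected on all arrays, had ratios of 0.786, 2.19 and 1.21, within ranges of 73.3 to 583 in arterial and 93.2 to 266 in venous plasma.

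The 2 endothelial markers, the arms of rno-miR-126a, of which 1 was detected on all arrays, summed to 31.7 to 53.9 in arterial and 32.5 to 42.6 in venous plasma, with ratios of 0.92, 1.27 and 1.35 in rats 1, 2 and 3. Their order over the rats was the same as that of the differences of rno-miR-143-3p. The ratios of the platelet and leukocyte markers (0.755, 0.874 and 1.05) had this order too, so that it was not particular to the endothelial markers. The part of either list in that difference was not tested. The 3 markers of striated muscle summed to 3 to 9.03 in arterial and 5.99 to 7.38 in venous plasma. Of these, rno-miR-1-3p and rno-miR-133a-3p, the defining microRNAs of heart and skeletal muscle, were detected on no array, and rno-miR-206-3p on 1. rno-miR-133b-3p, a microRNA of muscle outside this list, was detected on all arrays. rno-miR-1-3p, rno-miR-133a-3p and rno-miR-133b-3p also stand among the 18 smooth muscle microRNAs. In plasma, release by fewer cells and release of less microRNA per cell cannot be told apart.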

How the data were processed

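Plasma RNA of 6 samples (3 rats, 1 arterial and 1 venous sample each) was measured on single-colour Agilent arrays. For each array the authors deposited Feature Extraction output, which holds background-subtracted intensities of each spot with no normalization between arrays and detection flags written as 0 or 1. The study's notes give software version 11.0.1.1 whereas the headers of the array files name 10.7.3.1. The authors also deposited a table of linear intensities per probe, quantile normalized in GeneSpring, and the spot intensity that entered it is not named in the sources used here. Its column medians were 38.5 to 42.33.

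For the present values, control spots and spots flagged as outliers were left out, the remaining spots were averaged by probe and the probes by microRNA, the resulting 758 values per array were quantile normalized, and a floor of 1 was set before the log2. The 2 plasmas were compared by limma 3.58.1 in R 4.3.3 (two-sided, lmFit and eBayes with a block for the rat), using the study's unadjusted cutoff of 0.025 and, over all microRNAs, a p of 0.05 after Benjamini-Hochberg adjustment. The 378 microRNAs under the floor on every array have no spread, so that limma's prior carried 0.198 degrees of freedom, against 3.22 over the 126 microRNAs detected on all arrays. Samples were paired because the labels give the rat. The deviations of the 2 samples of a rat from their group means had correlations of 0.8, 0.69 and 0.64. Exact permutation tests within rats and all figures used Python 3.11.15. Only the limma fit with the rat as a block was tested on simulated data, in which microRNAs without spread were given a small one. The normalization and the permutation tests were not part of that simulation.

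The microRNAs named are the 4 members, the 5 closest in pattern to each detected member, and examples from the smooth muscle and marker lists, of which rno-miR-221-3p, rno-miR-125b-5p, rno-miR-150-5p, rno-miR-486 and those toward venous plasma were picked after their values were seen. Members and lists were chosen with earlier results of these data known. Alternatives changed the normalization, intensity, flagged spots, probe summary, floor, filter, test, block and rats used. The quantitative PCR of the study was not analysed here. Sequences and positions come from RefSeq (GRCr8), which is not the assembly the array was designed on.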

Additional observations from a re-analysis of the deposited data

How the results depend on the processing

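The log2 difference of rno-miR-143-3p was 0.74 and kept its direction under all 23 alternatives (0.29 to 1.12), and that of rno-miR-145-5p was 0.08 and ran from -0.09 to 0.49. rno-miR-143-3p crossed the cutoff of 0.025 in limma under 5 alternatives. These were scaling to the median of the microRNAs detected on all arrays (0.73), the authors' quantile-normalized table (0.41), fitting only microRNAs detected on all 6 arrays (0.74), leaving out rat 1, and the second probe as its own feature (0.72), whose readings in rat 3 were dim. The authors' table gave rno-miR-143-3p its lowest unadjusted limma p, 0.00169, with an adjusted p of 0.305. Over all alternatives its adjusted p ran from 0.305 to 1. With 1 rat left out in turn the log2 difference of rno-miR-143-3p ran from 0.61 to 0.94. That of rno-miR-145-5p ran from -0.09, without rat 1, to 0.25. The number of members past the cutoff was 0, and 1 under the first 3 of these and without rat 1 (0 to 1 with a rat left out). Without normalization between arrays the differences were 1.12 and 0.49, and the median of all microRNAs that every array detected moved by 0.40. Relative to that shift they were 0.71 and 0.08. Without the rat as a replicate block, in place of the paired fit, the differences were the same 0.74 and 0.08, neither past the cutoff.

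The number of all 758 microRNAs past the cutoff was 6. It was 13 with normexp on the median spot intensity, 12 in the authors' table, 10 with the median of the spots, 11 with the brightest probe, 13 with a floor of 0.1, 2 with a floor of 4, 3 among microRNAs detected on all arrays, and 17 to 33 with a rat left out. The number past an adjusted p of 0.05 was 0, and 1 with the fit limited to microRNAs that 1 or more arrays detected. The causes were not tested. Calling a member detected from at least 1 spot well above background gave the same 6, 0, 6 and 0 arrays. Dim spots limit the values of rat 3.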
